A study of Mus musculus with 9 samples.

Results

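The SLC25 family, the carriers that move metabolites, nucleotides and ions across the inner mitochondrial membrane, was followed gene by gene in the embryonic mouse forebrain with intact or heterozygous *Npas3*. Members were the genes whose symbol is Slc25a followed by a number, with at least 90 reads summed over all embryos. *Slc25a21* was left out as a gene of the same region of chromosome 12 as *Npas3*. It lies at 56712634 to 57197472 and *Npas3* at 53248677 to 54072175. Of 47 such symbols among the 55401 genes counted, 41 were members. 5 symbols were under the limit and *Slc25a21* made up the difference. The members nearest above the limit were *Slc25a34* with 120 summed reads and *Slc25a2* with 168. Nearest below it were *Slc25a31* with 72 and *Slc25a41* with 70, followed by *Slc25a43* with 61, *Slc25a48* with 20 and *Slc25a54* with 7.

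RNA was sequenced from the forebrain of 5 wild-type (WT, *Npas3*+/+) and 4 heterozygous (HET, *Npas3*+/-) female embryos at embryonic day 16 to 17, and each embryo was 1 sample. The HET embryos carried a constitutive deletion of 1 *Npas3* allele in every cell on the C57BL/6J background, and the WT embryos were littermates from the same breeding. NPAS3 is a transcription factor of the bHLH-PAS class, and the comparison asks which genes of energy metabolism differ when 1 of its alleles is lost. The sample labels name astrocytes as the cell type, while the tissue is bulk forebrain: the summed level of 6 neuronal markers was 3970 to 4360 CPM (read counts scaled to library size) in WT and 3860 to 4660 CPM in HET embryos, against 737 to 905 CPM and 742 to 853 CPM for 10 astrocyte markers. Libraries held 42640218 to 62830060 counts. *Npas3* itself was at 29.7 to 40.8 CPM in WT and 27.8 to 34.1 CPM in HET embryos, with overlapping groups (log2 fold change −0.30 ± 0.10 (SE), adjusted p = 0.877, edgeR quasi-likelihood test). The embryos also differed in choroid plexus RNA, and the source of this difference was not tested. *Ttr*, the most abundant of its markers read here, was at 2127 to 2631 CPM in 3 of 5 WT embryos (15, 16 and 41). It was at 467 CPM in HET embryo 24 and at 0.77 to 11.7 CPM in the other 5. All 8 choroid plexus markers were lower on average in HET, with summed levels of 18.9 to 2890 CPM in WT and 28.7 to 532 CPM in HET. Of these 8 markers, 6 were lower at an unadjusted p under 0.05, beside 3.09% of all genes. By edgeR 0 were called, beside 0.112% of all genes called lower.

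SLC25 proteins share a fold of membrane-spanning helices built from repeats of one module, and most of them exchange one substrate for another. They supply ADP and phosphate to ATP synthase, pass reducing equivalents and amino acids between cytosol and matrix, and bring in cofactors, iron and glutathione. In brain, glutamate enters the matrix on 2 routes with different partners. The aspartate/glutamate exchangers AGC1 (*Slc25a12*) and AGC2, or citrin (*Slc25a13*), work in the malate-aspartate shuttle, and the glutamate carriers GC1 (*Slc25a22*) and GC2 (*Slc25a18*) carry glutamate together with a proton. *Slc25a18* is known as a gene of astrocytes.

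The member that differed between the genotypes was *Slc25a18* (ENSMUSG00000004902), which lies on the forward strand of chromosome 6 at 120773578 to 120794336 (GRCm38). Its RefSeq promoter window of 300 bases around the annotated start is shown beside those of its closest relative in function, *Slc25a22* on the reverse strand of chromosome 7 at 141429744 to 141437892, because the study treats the E-box CANNTG as the site that NPAS3 reads. All are written 5′ to 3′ on the gene's strand from GRCm38.p6, with each CANNTG in capitals.
Slc25a18, chr6:120773518-120773817, forward strand: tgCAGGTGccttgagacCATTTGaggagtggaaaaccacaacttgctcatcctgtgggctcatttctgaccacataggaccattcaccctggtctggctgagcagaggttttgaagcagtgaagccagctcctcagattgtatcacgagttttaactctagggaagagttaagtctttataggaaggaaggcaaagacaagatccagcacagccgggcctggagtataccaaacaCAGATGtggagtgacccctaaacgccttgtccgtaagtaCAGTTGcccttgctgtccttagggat
Slc25a22, start 1, chr7:141437825-141438124, reverse strand: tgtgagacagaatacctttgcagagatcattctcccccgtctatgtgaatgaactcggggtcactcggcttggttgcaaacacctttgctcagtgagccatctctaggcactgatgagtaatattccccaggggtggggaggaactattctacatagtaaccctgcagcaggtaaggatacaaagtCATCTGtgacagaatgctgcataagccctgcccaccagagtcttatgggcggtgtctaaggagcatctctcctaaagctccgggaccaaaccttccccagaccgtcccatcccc
Slc25a22, start 2, chr7:141435326-141435625, reverse strand: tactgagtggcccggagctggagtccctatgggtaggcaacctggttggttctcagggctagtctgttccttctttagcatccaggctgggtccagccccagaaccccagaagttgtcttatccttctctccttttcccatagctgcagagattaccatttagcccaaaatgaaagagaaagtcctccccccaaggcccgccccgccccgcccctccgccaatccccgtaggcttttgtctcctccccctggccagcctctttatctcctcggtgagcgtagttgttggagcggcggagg
Slc25a22, start 3, chr7:141434545-141434844, reverse strand: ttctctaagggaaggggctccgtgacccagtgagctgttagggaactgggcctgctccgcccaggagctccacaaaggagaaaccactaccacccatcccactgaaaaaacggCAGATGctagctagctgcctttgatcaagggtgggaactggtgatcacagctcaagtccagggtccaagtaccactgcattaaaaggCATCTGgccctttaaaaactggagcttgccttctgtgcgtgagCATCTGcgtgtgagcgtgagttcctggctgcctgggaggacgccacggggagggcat

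The *Slc25a18* window held 4 CANNTG matches. They began 248, 233 and 15 bases before the RefSeq start at 120773768 and 24 bases after it. This start lies 190 bases inside the gene as GENCODE places it, so the match nearest before it is within the GENCODE gene. The *Slc25a22* windows held 1, 0 and 3. CANNTG reads the same on both strands and is short: it occurred in 72.3% of all 32851 windows of 300 bases. Among the 31 members matched to windows by symbol, it was in 29 of 40 windows (72.5%). 4 or more matches occurred in 6.49% of all windows, and no other member's window had more than 3. ACGTG, the core of the sites that hypoxia-type bHLH-PAS dimers bind, searched on both strands, was in 19.6% of all windows and 10 of 40 member windows (25%), and was absent from the windows of *Slc25a18* and *Slc25a22*. CACGTG, which contains both patterns, was in 7.15% of all windows and 17.5% of the members'. These matches are letters in a window and were not tested as binding sites.

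*Slc25a18* was low in this tissue and lower still in HET embryos. It measured 3.01, 3.03, 3.35, 4.65 and 2.69 CPM in WT embryos 5, 15, 16, 41 and 43. In HET embryos 5, 6, 7 and 24 it measured 0.779, 1.07, 1.14 and 1.33 CPM. The highest HET embryo was below the lowest WT embryo, and these values rest on 36 to 295 reads per library. The means were 3.35 ± 0.76 CPM (SD, n = 5 WT embryos) and 1.08 ± 0.23 CPM (SD, n = 4 HET embryos). On the log2 scale the gene fell by 1.63, with an SE of 0.21, a 95% interval of −2.09 to −1.17 and an adjusted p of 0.0107 over 17818 genes (edgeR quasi-likelihood test). Among those genes, 0.112% were called lower and 0.14% in either direction, and groups did not overlap for 1.85%. Among the 41 members, *Slc25a18* was the 1 called and the 1 with groups that did not overlap.

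**Figure D1:**
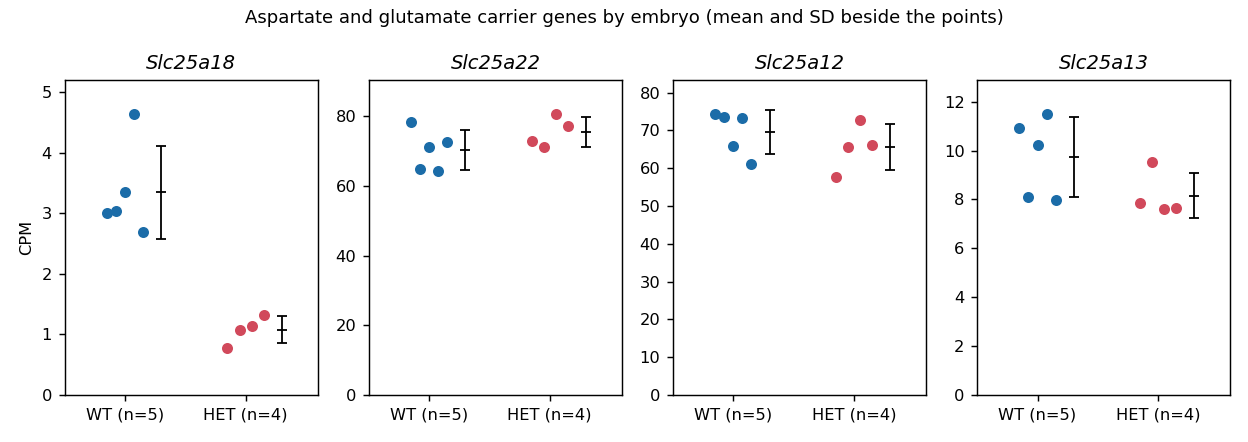
CPM (read counts scaled to library size, linear axes from 0) of the 4 aspartate/glutamate and glutamate carriers, with 1 point per embryo and the group mean ± SD as a bar, for 5 WT and 4 HET embryos. The HET points of *Slc25a18* (0.779 to 1.33 CPM) all sit under the WT points (2.69 to 4.65 CPM), while the groups overlap for *Slc25a22*, *Slc25a12* and *Slc25a13*.

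The size of the *Slc25a18* difference varied little between subsets of the embryos, while its call was lost in some. Leaving out each embryo in turn gave log2 fold changes of −1.75 to −1.48, called in 8 of 9 fits. Without HET embryo 6 the adjusted p was 0.0646 at a log2 fold change of −1.62. In the 5 embryos with *Ttr* under 100 CPM, WT embryos 5 and 43 had 3.01 and 2.69 CPM of *Slc25a18* and HET embryos 5, 6 and 7 had 0.779, 1.07 and 1.14 CPM. The log2 fold change there was −1.51 with an adjusted p of 0.236, and a fit over all embryos with a score of choroid plexus markers as a term gave −1.48 with an adjusted p of 0.00845.

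Markers of the cells in which *Slc25a18* is known to be expressed differed among themselves. Of 10 astrocyte markers, 8 were tested and none was called by edgeR, with 2 lower at an unadjusted p under 0.05. The share of all genes lower at that p was 3.09%. *Aqp4*, the astrocyte water channel, averaged 1.48 CPM in WT and 0.475 CPM in HET (log2 fold change −1.63, unadjusted p = 0.0034, adjusted p = 0.555). Its groups did not overlap, which held for 1.85% of all genes. *Aldh1l1*, a folate enzyme of astrocytes, averaged 22.1 and 9.89 CPM (−1.16, unadjusted p = 0.0183), with overlapping groups. The glutamate transporters *Slc1a3* and *Slc1a2* and the gap junction gene *Gja1* had log2 fold changes of −0.12, −0.07 and −0.01. The markers *Aldoc*, *Sox9* and *Gfap* went the other way, at 0.15, 0.13 and 0.08. The median over the tested astrocyte markers was −0.04, beside −0.005 over all genes, and *Gjb6* and *S100b* were too low to be tested. Of 6 radial glia markers, 1 was called lower by edgeR: *Fabp7*, a fatty acid binding protein (−0.86, adjusted p = 0.0223). It averaged 619 CPM in WT and 341 CPM in HET. *Hes5* (−0.51), *Vim* (−0.17) and *Sox2* (−0.04) were lower and *Pax6* (0.12) and *Nes* (0.04) higher, none of them called. The median over the 6 was −0.11. Their summed levels were 2080 to 2670 CPM in WT and 1750 to 2320 CPM in HET. In bulk tissue, fewer cells of a type and less RNA per cell cannot be told apart, and the part of these cells in the *Slc25a18* difference was not tested.

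*Slc25a22*, the other glutamate carrier, averaged 70.3 CPM in WT embryos, far above *Slc25a18*, and was not called. Its levels were 78.4, 65.0, 71.1, 64.4 and 72.8 CPM in the WT embryos in the order above and 73.0, 71.3, 80.9 and 77.3 CPM in the HET embryos. The groups overlapped, and the log2 fold change was 0.10 with a 95% interval of −0.05 to 0.26 (adjusted p = 0.911). Per kilobase of exon, *Slc25a18* made up 13.0% ± 3.23 of the reads of both glutamate carriers (SD, n = 5 WT embryos) and 4.27% ± 0.775 (SD, n = 4 HET embryos). The share was 10.4% to 18.5% in single WT embryos, highest in embryo 41, and 3.24% to 5.10% in HET embryos.

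The aspartate/glutamate exchangers overlapped between genotypes. *Slc25a12*, AGC1 of neurons, was at 74.5, 73.5, 65.9, 73.3 and 61.2 CPM in WT and 57.8, 65.7, 72.9 and 66.2 CPM in HET embryos, with a log2 fold change of −0.09 and a 95% interval of −0.27 to 0.10. *Slc25a13*, citrin, was at 10.9, 8.09, 10.2, 11.5 and 7.97 CPM in WT and 7.84, 9.55, 7.61 and 7.66 CPM in HET embryos. HET embryo 6 stood apart from the other HET embryos within the WT range, and the log2 fold change was −0.26 with a 95% interval of −0.56 to 0.05 (unadjusted p = 0.0899). As a share of the exchanger pair per kilobase, *Slc25a13* was 21.2% ± 2.40 (SD, n = 5 WT embryos) and 19.4% ± 2.34 (SD, n = 4 HET embryos).

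The ATP/ADP exchangers were the most abundant carriers. *Slc25a4*, ANT1, the form of heart, muscle and brain, was at 447, 433, 508, 436 and 421 CPM in WT and 441, 441, 438 and 441 CPM in HET embryos. The HET embryos lay inside the WT range with a coefficient of variation (CV) of 0.372%, against 7.64% in WT (log2 fold change −0.03, 95% interval −0.17 to 0.12). *Slc25a5*, ANT2, the form of dividing cells, was at 273, 214, 278, 235 and 264 CPM in WT and 247, 232, 179 and 198 CPM in HET embryos. HET embryos 7 and 24 were below every WT embryo and the other 2 were not, with a log2 fold change of −0.24, a 95% interval of −0.48 to 0.00 and an unadjusted p of 0.0502. Per kilobase, *Slc25a4* was 55.5% ± 2.39 of the pair (SD, n = 5 WT embryos) and 59.2% ± 3.49 (SD, n = 4 HET embryos). The level of *Slc25a5* is uncertain, since 33.8% of the 50-base stretches of its exons also occur in pseudogene copies.

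*Slc25a3*, which imports the phosphate for ATP synthesis and also carries copper, ranged over 201 to 251 CPM in WT and 202 to 220 CPM in HET embryos (log2 fold change −0.08, 95% interval −0.25 to 0.09). The ATP-Mg/phosphate carriers, which respond to calcium and adjust the adenine nucleotide pool of the matrix, were led by *Slc25a23* at 148.6 ± 13.1 CPM (SD, n = 5 WT embryos) and 151.1 ± 6.28 CPM (SD, n = 4 HET embryos). 2 of these 3 were lower and 1 was higher in HET, between −0.09 and 0.02 on the log2 scale. None of the 3 was called, nor was *Slc25a3*.

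Carriers of citric acid cycle intermediates were led by *Slc25a11*, the oxoglutarate/malate exchanger that works with AGC1 in the malate-aspartate shuttle. It was at 75.7, 77.3, 95.2, 82.6 and 81.4 CPM in WT and 76.8, 77.5, 75.9 and 76.4 CPM in HET embryos. WT embryo 16 was the highest and the HET embryos sat at the low end of the WT range (log2 fold change −0.10, 95% interval −0.26 to 0.05). The citrate carrier *Slc25a1*, which exports citrate for lipid synthesis, had a log2 fold change of 0.08 and the dicarboxylate carrier *Slc25a10* one of −0.03.

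Iron and glutathione carriers held the other member with an unadjusted p under 0.05. *Slc25a40*, a glutathione carrier on chromosome 5 at 8422850 to 8454797, forward strand, was at 9.04, 9.95, 9.0, 10.1 and 9.36 CPM in WT embryos. In HET embryos it was at 6.91, 6.89, 7.96 and 9.50 CPM. 3 HET embryos were below every WT embryo and embryo 24 lay inside the WT range. The log2 fold change was −0.28 ± 0.11 (SE), with an unadjusted p of 0.0335 and an adjusted p of 0.908. *Slc25a39*, its more abundant relative, averaged 52.9 ± 5.25 CPM (SD, n = 5 WT embryos) and 53.2 ± 3.02 CPM (SD, n = 4 HET embryos). Per kilobase, *Slc25a40* made up 5.62% ± 0.775 of this pair (SD, n = 5 WT embryos) and 4.61% ± 0.672 (SD, n = 4 HET embryos). The mitoferrins, which import iron for heme and iron-sulfur clusters, were *Slc25a28* (log2 fold change 0.05) and *Slc25a37* (0.11, 95% interval −0.20 to 0.42). *Slc25a37* had the second largest rise of the members, with 8.37 to 11.4 CPM in WT and 8.37 to 12.7 CPM in HET embryos.

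The 9 carriers of cofactors and nucleotides spanned −0.30 to 0.06 on the log2 scale, 4 lower and 5 higher. *Slc25a17*, the peroxisomal member that carries coenzyme A and related cofactors, led them per kilobase, with 94.8 to 106 CPM in WT and 89.6 to 102 CPM in HET embryos. *Slc25a51*, the NAD+ carrier, was the steadiest member in WT, at 122 to 128 CPM with a CV of 1.66%, and was at 121 to 129 CPM in HET embryos. *Slc25a32*, the folate and FAD carrier, had the second largest fall of the members at −0.30, on 57 to 104 reads per library and with a 95% interval of −0.70 to 0.10.

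The remaining groups held no called member. The 3 members related to uncoupling proteins, led by *Slc25a27* (UCP4) at 16.4 CPM per kilobase, spanned −0.06 to 0.05. The carnitine/acylcarnitine carrier *Slc25a20*, which admits fatty acids for oxidation, had a log2 fold change of −0.01 at 33.7 ± 3.09 CPM (SD, n = 5 WT embryos) and 33.4 ± 2.20 CPM (SD, n = 4 HET embryos). Among 5 carriers of basic, branched-chain and other amino acids, led by the branched-chain carrier *Slc25a44* at 19.1 CPM per kilobase, 3 were lower and 2 higher. The lowest of these was *Slc25a2*, an ornithine carrier at 0.282 to 0.509 CPM, with a fold change of −0.26 and an interval of −0.78 to 0.26. Of the 6 members with other or no settled substrate, led by *Slc25a46* of the outer membrane at 12.9 CPM per kilobase, 4 were lower and 2 higher. *Slc25a35* had the largest rise of all members at 0.12 (95% interval −0.17 to 0.41), and 31.3% of its exonic bases overlap *Rangrf*.

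**Figure D2:**
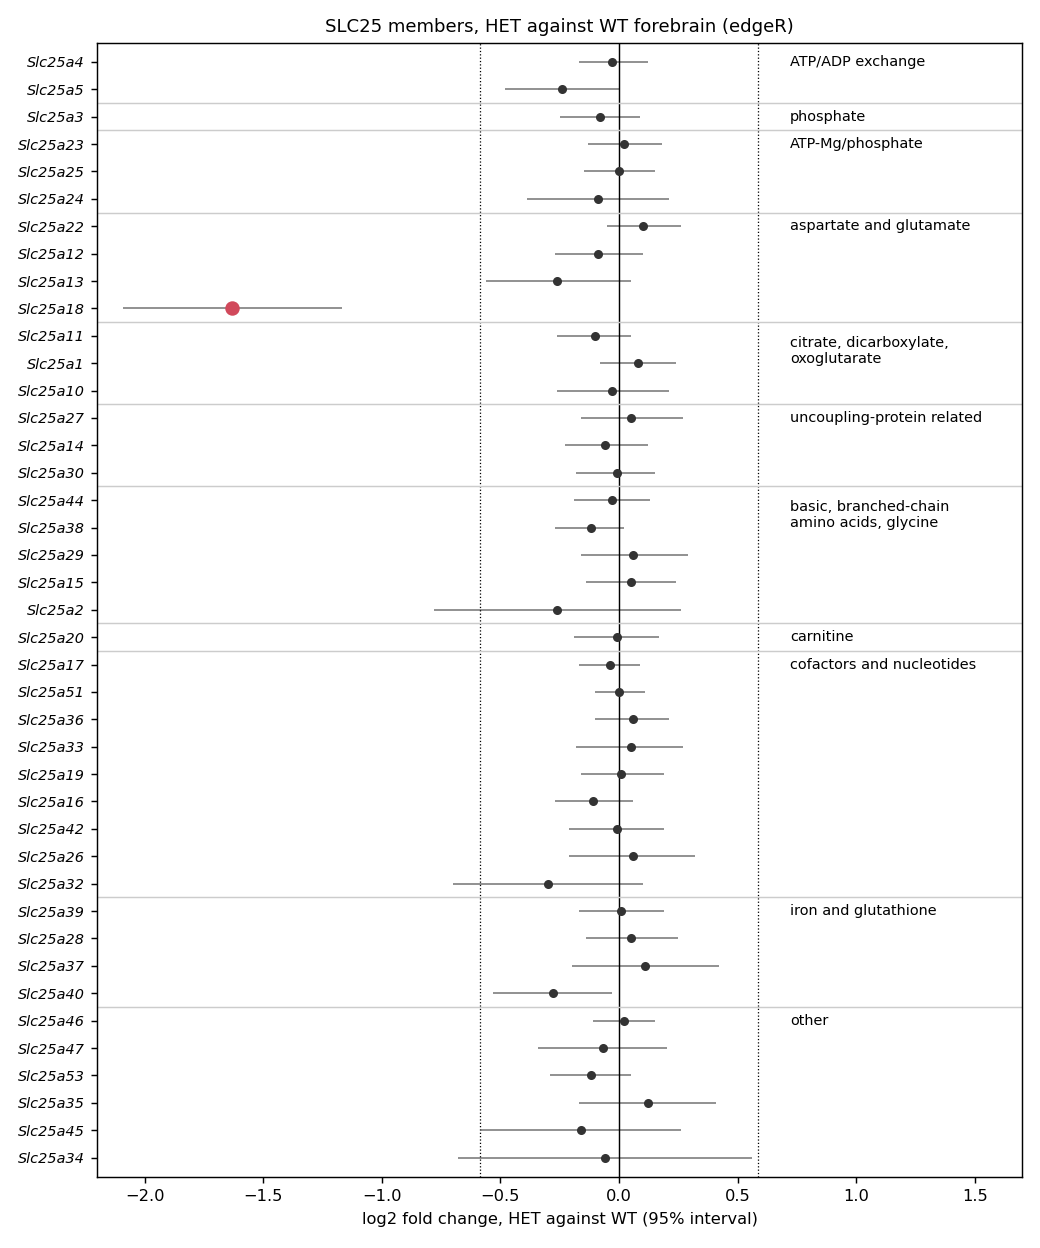
Log2 fold change of HET against WT (x axis, edgeR) for each of the 41 members, grouped by role, with 95% intervals as bars, dotted lines at 1.5-fold either way and the called member in red. *Slc25a18* at −1.63 is alone at the left, and the other 40 lie between −0.30 and 0.12.

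Across the family, 1 member was called lower and 0 higher by edgeR at an adjusted p under 0.05, beside 0.0281% of all genes called higher. DESeq2 gave the same counts, beside 0.381% of all genes in either direction. At an unadjusted p under 0.05, 2 members were lower and 0 higher, beside 2.32% of all genes higher and 5.42% in either direction. In HET, 25 members were lower and 16 higher (61.0% lower, against 51.5% of all genes), and 24 of the 41 had the other sign in at least 1 alternative fit. The median log2 fold change was −0.026, beside −0.005 over all genes. For 34 of 41 members the log2 fold change was under 0.15 in size, which held for 68.6% of all genes. The 95% interval lay within 1.5-fold in both directions for 37 members, beside 70.3% of all genes. The 4 others were *Slc25a18* and the low *Slc25a2*, *Slc25a32* and *Slc25a34*, whose reads do not exclude such a difference. The lowest adjusted p apart from *Slc25a18* was 0.908.

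Levels per kilobase of exon spread over 1850-fold. *Slc25a4* averaged 189.3 CPM per kilobase over the 9 embryos, with a range of 179 to 216, wholly above *Slc25a5* at 143.1 (109 to 169). *Slc25a3* followed at 39.15, and these 3 held 51.9% of the summed family level. The order of the first 2 and this share are uncertain. Of the 50-base stretches of *Slc25a5*, 33.8% also occur in pseudogene copies, and how multiply aligned reads were handled is not given. *Slc25a11* at 37.68 overlapped *Slc25a3* in range, and *Slc25a17* at 34.65 closed the first 5. Of the 41 members, 14 were at 10 or more CPM per kilobase, 22 between 1 and 10 and 5 under 1. At the low end stood *Slc25a2* at 0.289, *Slc25a32* at 0.265 and *Slc25a34* at 0.102, and only 11 members had a range wholly above the next in order. *Slc25a18* was 31st of 41 in WT at 1.75 CPM per kilobase and 37th in HET at 0.564, so the family's 1 called member was among its least abundant.

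**Figure D3:**
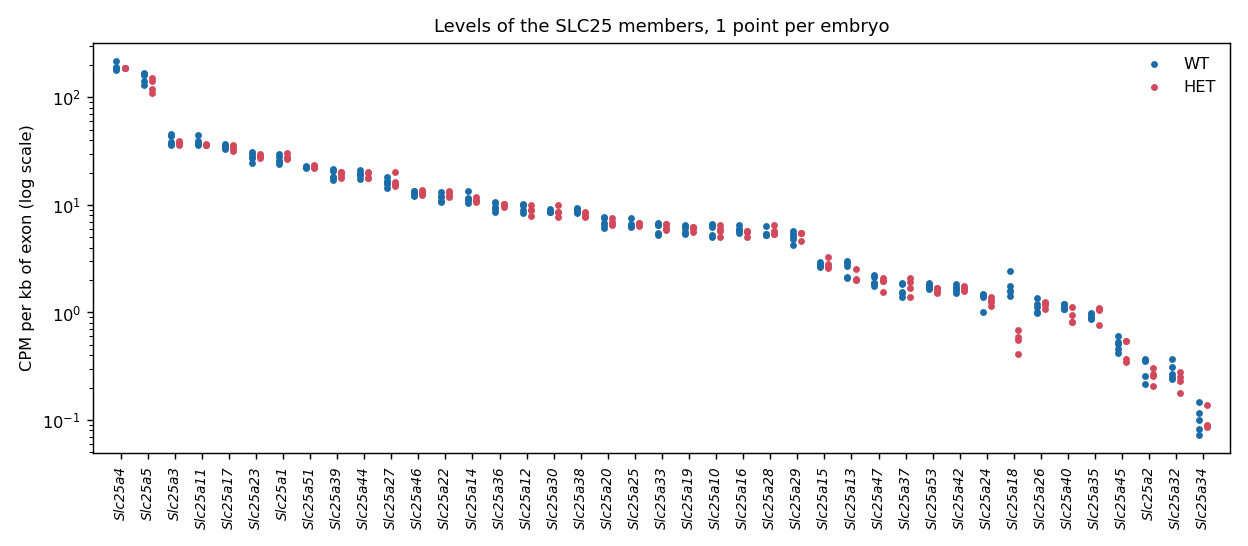
Level of each of the 41 members in CPM per kilobase of exon (log axis), with 1 point per embryo for 5 WT and 4 HET embryos and members in order of their mean. *Slc25a4* and *Slc25a5* are on top at 189.3 and 143.1, and *Slc25a18* is the member whose WT and HET points separate. The level of *Slc25a5* is uncertain, since part of its exon sequence also occurs in pseudogene copies.

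The summed level of the family differed between genotypes by less than its spread between WT embryos. The summed level of all members was 2358.6, 2242.6, 2445.2, 2248.5 and 2287.9 CPM in WT embryos 5, 15, 16, 41 and 43 and 2288.2, 2247.5, 2208.3 and 2263.7 CPM in HET embryos 5, 6, 7 and 24. The means were 2317 ± 85.5 (SD, n = 5) and 2252 ± 33.6 (SD, n = 4), and the groups overlapped. WT embryo 16 was highest, with 27 of 41 members above the mean of the other WT embryos and a median log2 deviation of 0.105, against −0.04 to 0.015 in the other 8 embryos. Its mean log2 CPM over 8 choroid plexus markers was 4.90, close to those of WT embryos 15 and 41 (5.35 and 5.28), whose median deviations were −0.032 and −0.04. The median CV between embryos was 8.84% in WT and 6.58% in HET.

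**Figure D4:**
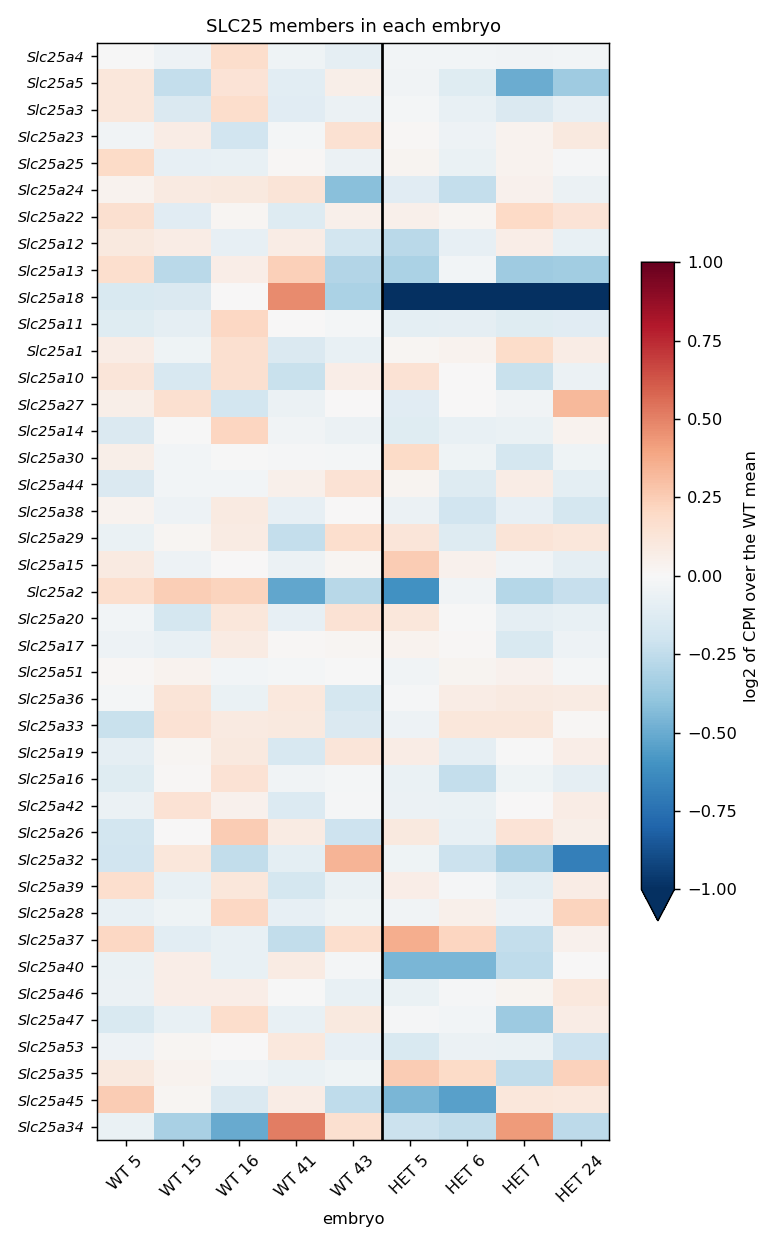
Heat map of the 41 members (rows, in role order) in the 9 embryos (columns, WT left of the line), coloured by the log2 ratio of CPM to the WT mean. *Slc25a18* is the row that is dark blue in all 4 HET embryos, where the colour scale ends at −1, and WT embryo 16 shows a faint rise over many rows.

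Other genes of mitochondrial transport held no called gene. The list held 33 genes: carriers named otherwise, the pyruvate carrier, sideroflexins, outer membrane channels, the calcium uniporter, shuttle and glutamate enzymes, and carrier import. Of these, 32 were tested by edgeR and 0 were called, beside 0.14% of all genes. At an unadjusted p under 0.05, 1 of the 32 was lower, a share near the 3.09% of all genes. This was *Glud1*, glutamate dehydrogenase, which turns glutamate that has entered the matrix into oxoglutarate, at 190 ± 9.98 CPM (SD, n = 5 WT embryos) and 174 ± 3.62 CPM (SD, n = 4 HET embryos). Its groups did not overlap (182 to 207 and 169 to 177 CPM), which held for 1.85% of all genes. Its log2 fold change was −0.13 ± 0.06 (SE), with an unadjusted p of 0.0403 and an adjusted p of 0.911. The malate dehydrogenase *Mdh1* of the cytosol was at 240 and 217 CPM (−0.14), and the aspartate aminotransferases *Got1* and *Got2* had log2 fold changes of −0.06 and −0.01. All 6 genes of carrier import had a negative value, between −0.11 and −0.01. Over the list, 24 of the 32 tested genes were lower in HET, beside 51.5% of all genes. The median was −0.05 and the range −0.25 to 0.12.

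In the genome the members were spread over 18 chromosomes. By their GENCODE positions, *Slc25a29* and *Slc25a47* sit head to head on chromosome 12 with 162 bases between them. The RefSeq promoter window of *Slc25a47*, at 108850879 to 108851178, lies inside its GENCODE gene at 108836046 to 108856815. The log2 fold changes of *Slc25a29* and *Slc25a47* were 0.06 and −0.07, and their levels 5.14 and 1.93 CPM per kilobase.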

How the data were processed

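Poly(A) RNA from forebrain was sequenced on an Illumina HiSeq after TruSeq preparation. The authors aligned 1 read of each pair to GRCm38.p6 with STAR 2.7.9a and counted reads for each gene of GENCODE M25 with featureCounts, and the deposited unit is raw counts without normalization. How strand and multiply aligned reads were handled is not given in the sources used here. Embryos were grouped by their labels, no column was left out (0 unused), and no 2 libraries were identical. WT embryos were littermates, but which embryos share a litter is not given, and p-values measure the spread between these embryos.

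Counts were filtered with filterByExpr (minimum count 10), scaled by TMM and compared over all 9 embryos without covariates by the quasi-likelihood test of edgeR 4.0.16 in R 4.3.3, with Benjamini-Hochberg adjustment over 17818 genes and a threshold of 0.05. The common biological coefficient of variation was 16.8%. The SE is the absolute log2 fold change divided by the root of F, and 95% intervals use the t quantile. The floor of 3 counts was 0.0473 to 0.0722 CPM, a limit set by read number alone. Positions, exon lengths and overlaps came from the GENCODE release M21 annotation of GRCm38, so levels per kilobase divide counts made on M25 by exon lengths of M21. Promoter windows came from RefSeq (GRCm38.p6) and matched 31 of 41 members by symbol. Tests were checked on simulated counts.

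Members, gene lists and tests were chosen with earlier results of these data known. Genes named were the 4 glutamate carriers, the 5 highest members, members with an unadjusted p under 0.05 or groups that did not overlap, the 3 largest rises and falls, the leader of each role group, the 3 lowest members, those beside the limit of 90 reads, *Npas3* and *Ttr*. *Slc25a1*, *Slc25a10*, *Slc25a24*, *Slc25a28*, *Slc25a29*, *Slc25a30*, *Slc25a36*, *Slc25a47*, *Slc25a51* and the marker and transport genes named were added after their values were seen. Alternatives were DESeq2 1.42.0, other scalings and filters, a score averaging log2 CPM over 8 choroid plexus markers as a covariate, the 5 embryos with *Ttr* under 100 CPM, each embryo left out in turn, and the longest transcript as length.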

Additional observations from a re-analysis of the deposited data

Results flagged for a closer look

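In 9 of 82 groups of embryos (41 members in each genotype), 1 embryo stood apart from the rest by Dixon's criterion, where chance gives about 4.1, or 1 in 20. No test of genotype rests on these flags. In HET embryos, *Slc25a4* was at 438 CPM in embryo 7 against 441.2 to 441.3 in the others, a gap that is large only beside their closeness. *Slc25a36*, a pyrimidine nucleotide carrier, was at 92.0 CPM in HET embryo 5 against 97.78 to 98.54. *Slc25a29*, a carrier of basic amino acids, was at 11.99 CPM in HET embryo 6 against 14.21 to 14.38, and *Slc25a13* was at 9.548 CPM in the same embryo against 7.605 to 7.838. HET embryo 7 also stood apart for *Slc25a35*, at 2.831 CPM against 3.842 to 4.006, and for *Slc25a34*, at 0.372 CPM against 0.2304 to 0.2382. In WT embryos, *Slc25a30* was at 41.8 CPM in embryo 5 against 39.41 to 40.06, *Slc25a28* at 23.92 CPM in embryo 16 against 19.59 to 20.13, and *Slc25a24* at 3.489 CPM in embryo 43 against 4.787 to 5.105.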

How the results depend on the processing

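No paired analysis was possible because the groups share only 1 embryo number, 5, and nothing in the labels makes equal numbers a pair. Over all genes, 20 were lower and 5 higher in HET by edgeR, 63 and 21 by DESeq2, 12 and 3 in the 5 embryos with *Ttr* under 100 CPM, and 2 were higher once the choroid plexus markers entered the model. Leaving out each embryo gave 13 to 20 lower and 0 to 5 higher. The 1 member called lower, *Slc25a18*, was called under both other scalings, both other filters, DESeq2 and the covariate (adjusted p of 7.18e-11 to 0.013). The count of members called was 0 in the 5 embryos with low *Ttr*, where fewer samples enter the fit, and 0 to 1 with an embryo left out, 0 being without HET embryo 6. The count of members at an unadjusted p under 0.05 went from 2 to 1 without WT embryo 41 and without HET embryo 7, and to 3 under upper-quartile scaling, under both other filters and without WT embryo 15. The family median stayed between −0.04 and 0.002 with an embryo left out. Of 654 fold changes of members under 16 alternatives, 63 had the other sign, in 24 members whose log2 fold change was at most 0.11 in size, and 17 members kept 1 sign throughout. The 5 highest members were the same 5 with the length of the longest transcript. Depth limits *Slc25a34* and *Slc25a2* most, with 9 to 25 and 13 to 23 reads per library, while *Slc25a32* had 57 to 104.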

Other observations

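The 6 SLC25 symbols that were not members had 0 to 15 reads per library. *Slc25a31*, the ATP/ADP exchanger of testis, had 4 to 11 reads in WT and 5 to 13 in HET embryos, and *Slc25a41*, an ATP-Mg/phosphate carrier that lies 2056 bases from *Slc25a23*, had 4 to 15 and 4 to 12. *Slc25a43*, 18448 bases from the abundant *Slc25a5* on the X chromosome, had 5 to 9 and 3 to 8. *Slc25a21*, the oxodicarboxylate carrier on the chromosome of *Npas3*, had 2, 7, 7, 4 and 4 reads in WT embryos 5, 15, 16, 41 and 43. In HET embryos 5, 6, 7 and 24 it had 3, 0, 2 and 1.

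Markers of other cell types that could be in the dissection were also read for their summed level. Red blood cell markers ranged over 209 to 569 CPM in WT and 380 to 444 CPM in HET embryos, with 0 of 7 at an unadjusted p under 0.05 by edgeR. Endothelial markers were at 84.6 to 114 and 82.9 to 94.5 CPM. Of the 4, *Kdr* (−0.31) and *Pecam1* (−0.21) were lower at that p, beside 3.09% of all genes, and neither was called. *Tek* (−0.24) and *Cldn5* (0.01) were not at that p. Microglial markers were at 31.8 to 41.6 and 32.2 to 40.9 CPM, and meningeal markers at 9.27 to 37.1 and 16.1 to 18.4 CPM, with 0 of 4 at that p in each. Of 6 neuronal markers, 0 were at that p.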
